A study of Homo sapiens with 2 samples.

Results

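Kallikrein proteases and their inhibitors were examined in HSC-3 cells, an established line of human tongue squamous cell carcinoma, on Myogel and on plastic. For this purpose 10 genes were named, the kallikreins KLK5, KLK6, KLK7, KLK8, KLK10, KLK11 and KLK13 and the inhibitors SPINK5, SLPI and PI3, and every probe set assigned to a single one of these symbols was taken. This gave 15 probe sets for 9 of the 10 genes, out of 54613 probe sets and 19775 genes. No probe set was named for SPINK5 here, and 1 probe set that matches both KLK8 and KLK9 was not used.

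The plastic group was cells seeded in uncoated 6-well plates, and the Myogel group was cells seeded on wells coated with Myogel, a protein extract of human uterine leiomyoma, as the titles and the methods say, although a protocol label names uncoated plates for both. Both groups were the same line, made to express red fluorescent protein by a lentivirus that carried a control sequence and selected with puromycin, and both grew in medium with serum and hydrocortisone. For the arrays 90000 cells were seeded and harvested on the next day, and RNA of 3 wells was pooled for 1 array per surface. A difference between the surfaces therefore has no replicate check, and no p-value is given. The 10 genes were chosen by a proposal made with the fold changes of these arrays in view, so their fold changes are a description.

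Kallikreins are secreted serine proteases made as inactive precursors, which other proteases, kallikreins among them, cut into the active form. In stratified squamous epithelium KLK5, KLK7 and KLK14 cut the proteins of desmosomes that hold surface cells together, and so let these cells shed. Their activity is held back by SPINK5, also called LEKTI, while SLPI and PI3 (elafin) share the WAP fold and block serine proteases such as neutrophil elastase. SLPI also inhibits KLK7.

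The kallikrein genes lie side by side on chromosome 19, and the windows before the starts of 3 neighbours, KLK5, KLK6 and KLK7, are shown as examples. These 3 were picked with their values and windows known, and the part of this stretch in their values was not tested. Each window holds the 250 bases before the annotated start (for KLK7 the outermost of its annotated starts) from RefSeq, build GRCh38.p14, and capitals mark the GC box GGGCGG or its reverse complement, which factors of the SP1 and KLF families bind.

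KLK5, chr19:50953039-50953288, minus strand: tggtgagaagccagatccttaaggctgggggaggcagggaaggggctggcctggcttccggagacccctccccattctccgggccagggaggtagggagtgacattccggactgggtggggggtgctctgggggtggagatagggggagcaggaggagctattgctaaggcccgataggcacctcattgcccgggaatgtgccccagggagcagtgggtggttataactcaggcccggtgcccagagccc

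KLK6, chr19:50969592-50969841, minus strand: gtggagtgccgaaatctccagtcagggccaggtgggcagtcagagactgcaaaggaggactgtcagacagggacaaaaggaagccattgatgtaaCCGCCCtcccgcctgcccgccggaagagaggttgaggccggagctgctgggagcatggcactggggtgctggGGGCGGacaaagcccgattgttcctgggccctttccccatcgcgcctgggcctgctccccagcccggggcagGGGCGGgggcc

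KLK7, chr19:50984065-50984314, minus strand: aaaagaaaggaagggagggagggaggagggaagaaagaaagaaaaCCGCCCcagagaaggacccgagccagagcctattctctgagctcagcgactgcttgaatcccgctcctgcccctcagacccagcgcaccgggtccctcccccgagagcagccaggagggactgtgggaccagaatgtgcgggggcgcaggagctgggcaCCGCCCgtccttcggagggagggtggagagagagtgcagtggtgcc

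The KLK5 window held 0 GC boxes, that of KLK6 held 3 and that of KLK7 held 2, while 42.6% of all 35116 windows of this length held at least 1. Over the windows of the 10 genes a GC box was found in 7 of 12, which belong to 4 of the 7 genes with windows. The windows of KLK7 overlap each other, as do those of KLK10 and those of KLK13, so these are not separate stretches. The table of windows had entries for 7 of the 10 genes, KLK5, KLK6, KLK7, KLK10, KLK11, KLK13 and SPINK5, with 12 windows in all. The AP-1 motif TGANTCA, read on both strands, was found in 0 of these 12 windows and in 6.57% of all windows. The motif AGAACA of the glucocorticoid receptor, also read on both strands, was found in 1 of them, that of SPINK5, and in 12.4% of all windows. None of the 3 motifs contains another, and a match or its absence describes only these letters in this stretch.

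In HSC-3 cells on Myogel the brightest probe set of each of the 7 kallikreins had a lower value than on plastic, and SLPI was lower as well, while PI3 was slightly higher. Fold changes (FC) are the Myogel value over the plastic value, and values are linear intensities. They ranged from 1.64-fold lower for KLK5 to 1.13-fold lower for KLK8 among the kallikreins. With FC 1.5 or more, the fold threshold of the study taken here as the only condition, 2 of the 9 measured genes were lower, KLK5 and KLK11. In the higher direction 0 passed, against 17.5% of all genes lower and 9.71% higher. The study reported a far smaller share of genes past this threshold, so the counts here cannot be set beside its own. Lower values by any amount were found for 7 of 7 kallikreins and for 58.7% of all genes. The median log2 FC was -0.42 over the 9 genes and -0.07 over all genes.

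**Figure D1:**
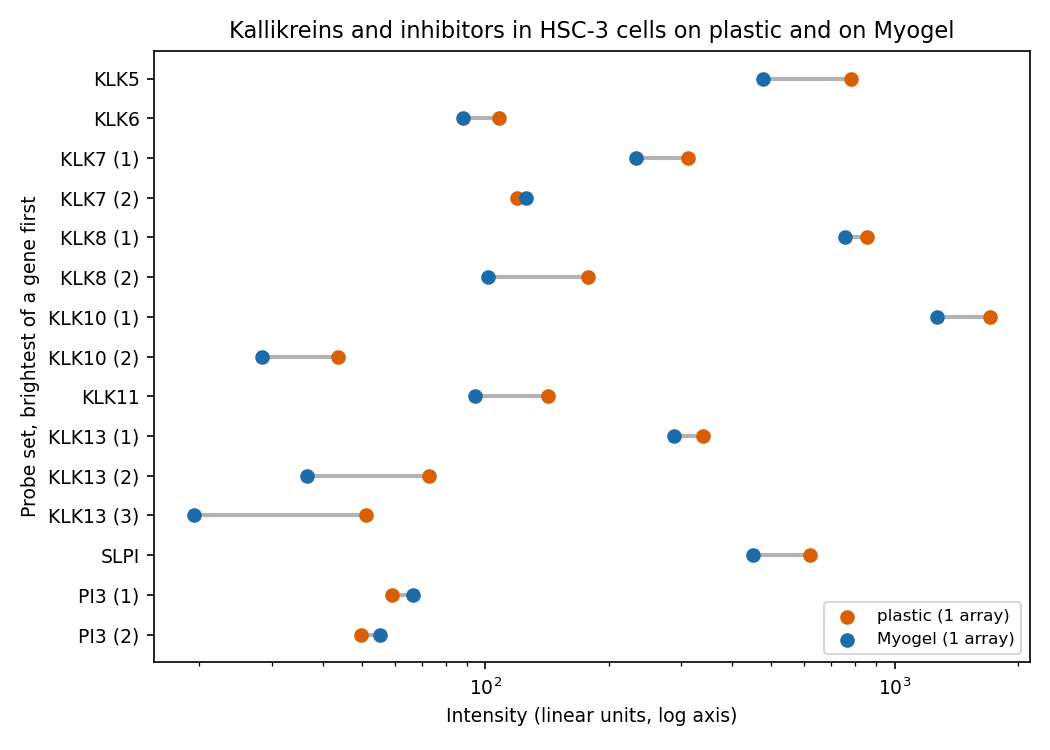
Intensity of each probe set (linear units on a log axis) on plastic (orange) and on Myogel (blue), 1 array each, for the 7 kallikreins, SLPI and PI3; numbers in parentheses order the probe sets of a gene by signal. In 12 of the 15 probe sets the blue point lies to the left, and the exceptions are the second probe set of KLK7 and both of PI3.

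KLK5, a trypsin-like protease that starts the activation of other kallikreins in the cornified layer, showed the lowest FC of the brightest probe sets. Its only probe set had 784 on plastic and 478 on Myogel, a log2 FC of -0.71. The middle 95% of the 1000 probe sets nearest in signal ran from -0.54 to 0.59 on the log2 scale. KLK5 lay below this range and was the 1 of 15 probe sets that lay outside its own range. By definition such ranges hold about 95% of all probe sets, so 1 of 15 outside is near the share for any probe sets. These ranges describe the spread between the arrays at a given signal and are not a test. KLK5 was also the only one of the 6 measured members at or above the median gene signal of 142 that passed FC 1.5, where 1.66% of all genes at that signal were lower and 0.93% were higher.

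KLK7, a chymotrypsin-like protease that KLK5 can activate, was 1.34-fold lower in its brightest probe set, with 313 on plastic and 234 on Myogel. Its other probe set went the other way, with 120 on plastic and 126 on Myogel. Both lay inside the ranges for their signal, so the 2 probe sets do not give KLK7 one direction.

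KLK8, also named neuropsin, had 856 on plastic and 756 on Myogel in its brightest probe set, a log2 FC of -0.18. Its second probe set was 1.76-fold lower, with 178 on plastic and 101 on Myogel. The direction was the same, but the second value was near the lower end of its range, which ran from -0.92 to 0.67.

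KLK10, named at first as a gene whose expression is lost in breast cancer cells, had 1711 on plastic and 1271 on Myogel, the largest difference in linear units among the 15 probe sets. The log2 FC of -0.43 was close to the lower end of the range for its signal, -0.47. Its dim second probe set had 43.7 on plastic and 28.4 on Myogel and was 1.54-fold lower.

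KLK11 had 142 on plastic and 94.3 on Myogel, and at 1.51-fold lower lay at the threshold. KLK6, a trypsin-like protease abundant in brain and made by many carcinomas, had 108 on plastic and 88.1 on Myogel. Each has 1 probe set, and both values lay inside the ranges for their signal.

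KLK13 was lower in each of its 3 probe sets. The brightest had 340 on plastic and 290 on Myogel, a log2 FC of -0.23. The second had 73.0 on plastic and 36.6 on Myogel and was 1.99-fold lower. The dimmest had 51.0 on plastic and 19.4 on Myogel and was 2.63-fold lower, the lowest FC among the 15 probe sets. At such signals the spread is wide, with a range from -1.78 to 1.46.

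Over the probe sets of the kallikreins, 11 of 12 were lower on Myogel and 6 of these passed FC 1.5, while 59.6% of all probe sets were lower by any amount and 24.2% passed FC 1.5 in this direction. None of the 15 probe sets passed FC 1.5 in the higher direction, which 13.8% of all probe sets did. Each of the 11 was also below the median log2 FC of the probe sets nearest to it in signal. Of the 6 that passed FC 1.5, 4 were dimmer probe sets of KLK8, KLK10 and KLK13, genes whose brightest probe set stayed within FC 1.5.

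**Figure D2:**
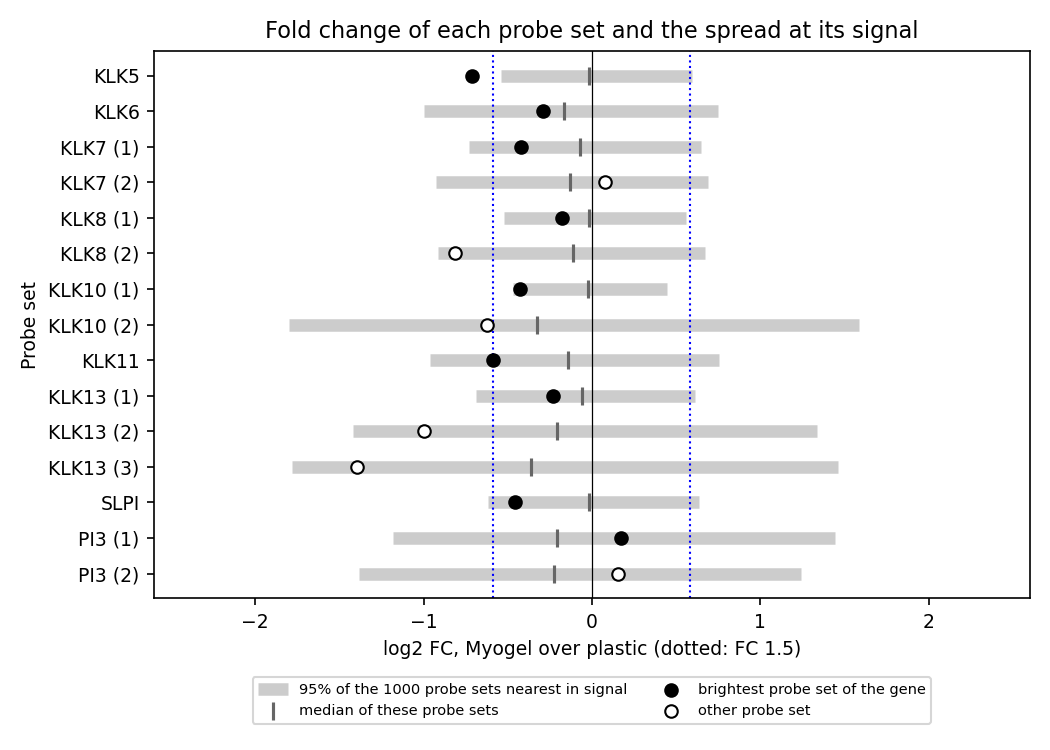
The log2 FC of Myogel over plastic (x axis) for each of the 15 probe sets, filled points for the brightest of a gene and open points for the others. Grey bars hold 95% of the 1000 probe sets nearest in signal, ticks their median and dotted lines FC 1.5. KLK5 at -0.71 lies beyond its bar and the other 14 lie within theirs, which is near the share such bars hold.

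SLPI, the secretory leukocyte protease inhibitor of saliva and mucosa, had 620 on plastic and 451 on Myogel. It was 1.37-fold lower, with a log2 FC of -0.46 inside the range from -0.62 to 0.63. PI3, which can be cross-linked into the cornified envelope, had 59.0 on plastic and 66.5 on Myogel in its brightest probe set. The other had 49.6 on plastic and 55.3 on Myogel. Both probe sets of PI3 were 1.13-fold and 1.11-fold higher, at a signal where the ranges reach beyond a log2 FC of 1. The measured inhibitors thus went in opposite directions, each by less than FC 1.5, and the kallikreins had a median log2 FC of -0.42 beside -0.46 for SLPI and 0.17 for PI3.

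The 2 arrays were not centred on each other. Over all probe sets the median log2 FC was -0.11, and setting this to 0 gave KLK5 a log2 FC of -0.61, KLK7 -0.31, KLK10 -0.32, SLPI -0.35 and PI3 0.28. The brightest probe sets of all 7 kallikreins stayed below 0 after this shift, after quantile normalization and after loess centring, and KLK8 came closest to 0, with -0.07 after the shift. KLK5 was the only member gene that remained beyond FC 1.5 under each of these 3 scalings, while KLK11 had -0.46 after quantile normalization.

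**Figure D3:**
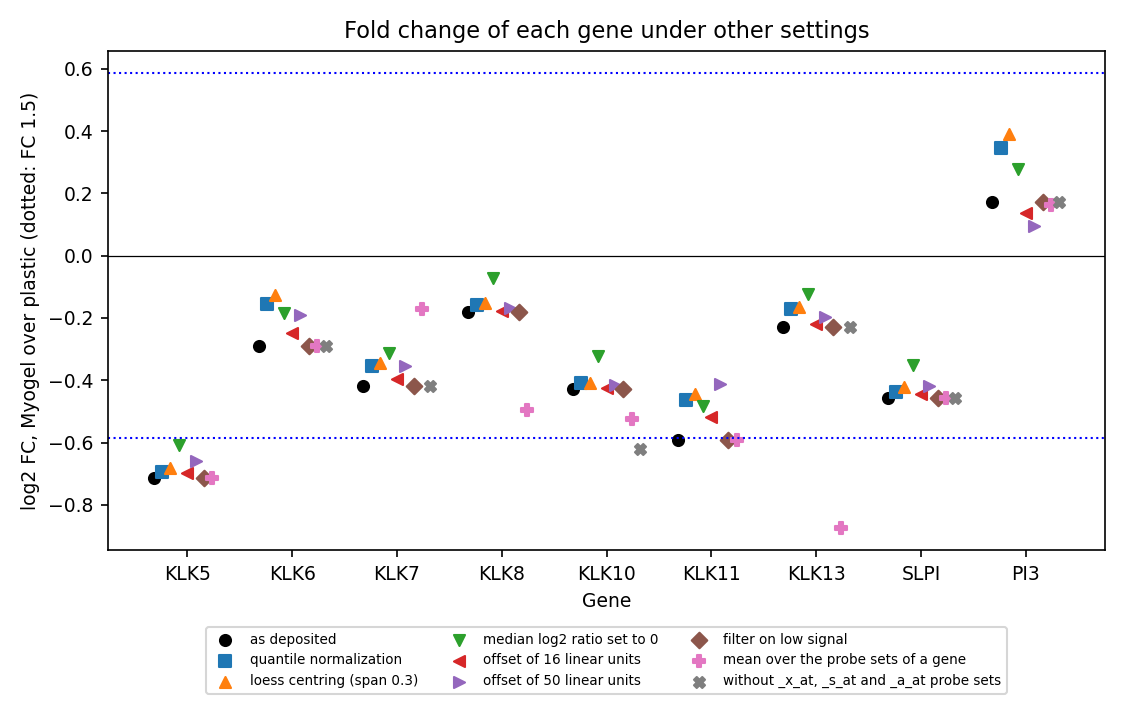
The log2 FC of each gene (y axis) for the values as deposited (black) and under 8 other settings, with dotted lines at FC 1.5. The 7 kallikreins and SLPI lie below 0 and PI3 above 0 under each setting that gives a value, and KLK5, KLK8 and KLK11 have none when probe sets of the _x_at, _s_at and _a_at kinds, whose probes may match more than 1 transcript, are left out.

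The arrays also differed in a control for the integrity and labelling of RNA. The ratio of the 3′ to the 5′ control probe set of ACTB was 3.19 on plastic and 6.10 on Myogel, and that of GAPDH was 1.10 and 1.22. The 3′ ACTB control itself had 13342 on plastic and 11666 on Myogel. Probe sets far from the 3′ end of a transcript could be touched by such a difference, the files do not give the place of each probe set in its transcript, and its part in the values of the kallikreins was not tested.

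The labelled cell type was checked with markers. Of 10 markers of squamous epithelium 6 were measured, and each of these was bright, with KRT14 at 18856 on plastic and 18224 on Myogel. The summed level of these 6 was 64677 on plastic and 60517 on Myogel, and 0 of them passed FC 1.5. For the tissue from which Myogel is made, the 7 smooth muscle markers summed to 852 on plastic and 802 on Myogel, and the 7 fibroblast markers to 717 and 719. The 5 measured markers of endothelium summed to 421 and 308, and the 5 of blood to 526 and 466. Of the smooth muscle markers 1 passed FC 1.5 in the higher and 2 in the lower direction. LMOD1 had 14.3 on plastic and 30.9 on Myogel, and SMTN had 136 and 88.4. CNN1 had 17.6 on plastic and the floor value of 1 on Myogel. DES, within FC 1.5, had 43.0 on plastic and 63.5 on Myogel. Of the fibroblast markers 1 passed FC 1.5 in the higher direction, of the blood markers 1 in the lower, and of the endothelial markers 4 in the lower. Of all genes at any signal 9.71% were higher and 17.5% lower. Dim values were common here, and 4 of the 5 endothelial markers had less than 100 on plastic. The part of these markers in the values of the kallikreins was not tested. In a bulk sample, fewer cells that express a gene and less RNA per cell cannot be told apart.

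The kallikreins that were not among the 10 genes had mostly dim probe sets. Of 8 such genes 7 were measured, and 1 of these, KLK3, lay at or above the median gene signal. KLK3, the prostate-specific antigen, had 159 on plastic and 184 on Myogel, and KLK15 had 136 on plastic and 148 on Myogel. The genes KLK2 and KLK3 are close copies, and their probe sets may share signal. None of the 7 was higher with FC 1.5 or more and 1 was lower, the dim KLK1, named after its values were seen, with 18.9 on plastic and 7.29 on Myogel, beside 9.71% and 17.5% of all genes. These 7 genes had a median log2 FC of -0.05. Over their 21 probe sets, 8 were lower by any amount and 13 were higher. For the 12 probe sets of the kallikreins above 11 were lower and 1 higher, and of all probe sets 59.6% were lower. Of the 21, 5 passed FC 1.5 in the lower and 2 in the higher direction, beside 24.2% and 13.8% of all probe sets. A dimmer probe set of KLK12, named after its values were seen, had 142 on plastic and 67.1 on Myogel. Its log2 FC of -1.08 lay below its range. Likewise, a dimmer one of KLK15 had 23.0 on plastic and 68.85 on Myogel, and its 1.58 lay above its range.

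In gene order the cluster begins with KLK1, KLK15, KLK3, KLK2 and KLK4 and goes on with KLK5 to KLK14. The 3 kallikreins whose brightest probe set was higher on Myogel, KLK15, KLK3 and KLK2, stand next to each other. Each of these brightest probe sets lay inside the range for its signal. From KLK4 to KLK14 the brightest probe set of each measured gene was lower by some amount, from -0.05 for KLK12 to -0.71 for KLK5. KLK4 and KLK12 turned above 0 after each of the 3 scalings, to 0.00 and 0.06 with the median set to 0. Other probe sets of KLK4, KLK7 and KLK12 were higher on Myogel, 3 of the 5 of KLK4 among them. No probe set was named for KLK9 here. KLK14, a trypsin-like protease of the cornified layer, had 47.0 on plastic and 35.7 on Myogel, inside its range. The position is given as a description, since the genes were chosen with their values known.

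**Figure D4:**
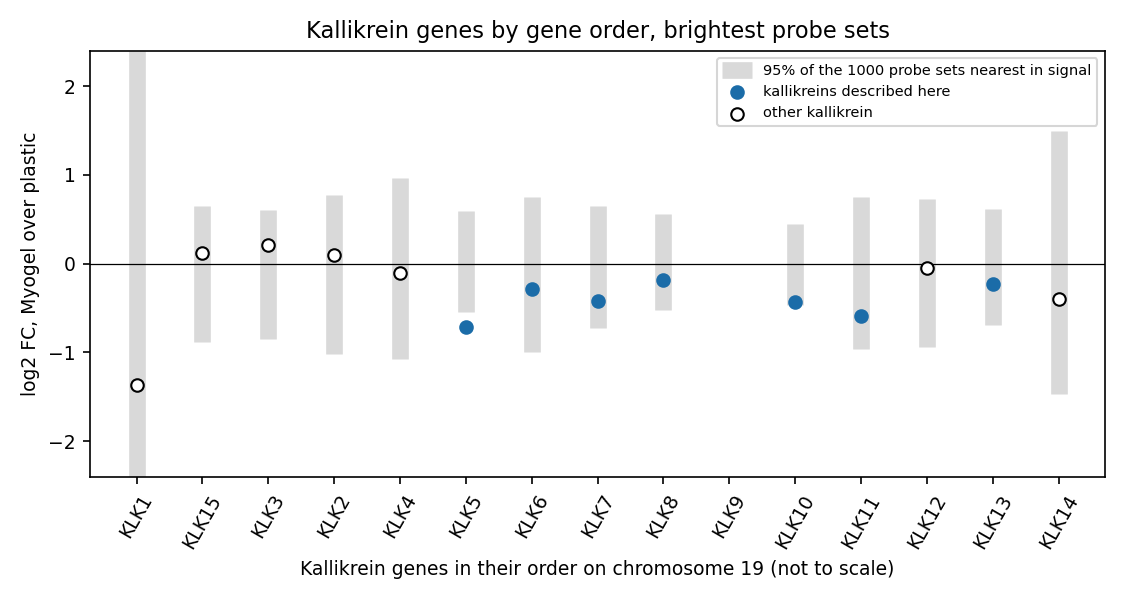
The log2 FC of the brightest probe set (y axis) of the kallikrein genes in their order on chromosome 19 (x axis, not to scale), filled for the 7 kallikreins described here and open for the others. Grey bars hold 95% of the 1000 probe sets nearest in signal, and the bar of KLK1 runs beyond the axis; KLK1 and the measured genes from KLK4 to KLK14 lie below 0, KLK15, KLK3 and KLK2 above it, and KLK9 has no value. After the other scalings KLK4 and KLK12 lie above 0.

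Membrane-anchored and related serine proteases of epithelium, among which matriptase (ST14) and prostasin (PRSS8) act above or beside the kallikreins, were described with their inhibitors SPINT1 and SPINT2. Of 19 genes 17 were measured. FC 1.5 was passed by 1 gene in the higher and 3 in the lower direction, each of them below the median gene signal, beside 9.71% and 17.5% of all genes. The median log2 FC was -0.06. SPINT2, a Kunitz inhibitor of matriptase and prostasin, had 2904 on plastic and 3385 on Myogel. PRSS23 had 1619 on plastic and 1689 on Myogel. ST14 itself, named after its values were seen, had 930 on plastic and 921 on Myogel in its brightest probe set. Its second probe set had 505 on plastic and 538 on Myogel. Its dimmest had 52.75 on plastic and 12.73 on Myogel, and the log2 FC of -2.05 lay just below its range, from -2.00 to 1.61. PRSS22, likewise named after its values were seen, had 420.3 on plastic and 283 on Myogel, just short of FC 1.5.

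The other genes of the SPINK and WFDC families, relatives of SPINK5, SLPI and PI3, were dim throughout. Of 24 genes 19 were measured, all 19 lay below the median gene signal, and 5 were at the floor of 1 on an array. FC 1.5 was passed by 12 of them in the lower direction and by 0 in the higher, beside 17.5% and 9.71% of all genes at any signal. At or above the median gene signal only 1.66% of genes were lower past FC 1.5. The share among dim genes is therefore above 17.5%, and the 12 are not set against a share matched in signal. SPINK2, named after its values were seen, had 62.2 on plastic and 5.11 on Myogel, and its log2 FC of -3.61 lay below the range for its signal. The brightest of them by mean signal, WFDC9 and WFDC12, had 95.1 and 84.4 on plastic and 67.1 and 53.3 on Myogel. Both lay inside the ranges for their signal.

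Among serpins and other inhibitors, 13 of 14 genes were measured. FC 1.5 was passed by 3 of these in the lower direction and by 0 in the higher, beside 17.5% and 9.71% of all genes, and the median log2 FC was -0.03. SERPINA3, antichymotrypsin, was the only gene of the 5 lists that passed FC 1.5 at or above the median gene signal in its brightest probe set. It had 429 on plastic and 227 on Myogel, a log2 FC of -0.92, below the range from -0.69 to 0.60 for its signal. SERPINA1, the inhibitor of neutrophil elastase, named after its values were seen, had 1242 on plastic and 880.0 on Myogel in its brightest probe set, within FC 1.5. Its second probe set had 842 on plastic and 324 on Myogel, a log2 FC of -1.38, below the range from -0.61 to 0.63.

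Among substrates and targets of these proteases and inhibitors, 14 of 15 genes were measured. FC 1.5 was passed by 2 genes in each direction, each of them dim, beside 17.5% of all genes lower and 9.71% higher, and the median log2 FC was -0.05. GRN, the precursor of granulins that SLPI can shield from elastase, had 3701 on plastic and 3336 on Myogel. F2R, a receptor that proteases activate by cutting it, had 804 on plastic and 1111 on Myogel. The desmosomal substrates named after their values were seen, CDSN and DSC1, had 34.4 and 17.0 on plastic and 25.1 and 12.4 on Myogel, and DSG1 had 16.5 on plastic and 1.96 on Myogel. At these signals the ranges span more than 3 units of log2 FC. The dim genes past FC 1.5 were DSG1 and ELANE in the lower and FLG and PRTN3 in the higher direction, the last 3 also named after their values were seen. ELANE, neutrophil elastase, had 50.9 on plastic and the floor value of 1 on Myogel, and PRTN3, a related neutrophil protease, had the floor value of 1 on plastic and 8.86 on Myogel. FLG, filaggrin of the cornified layer, had 1.49 on plastic and 5.50 on Myogel.

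**Figure D5:**
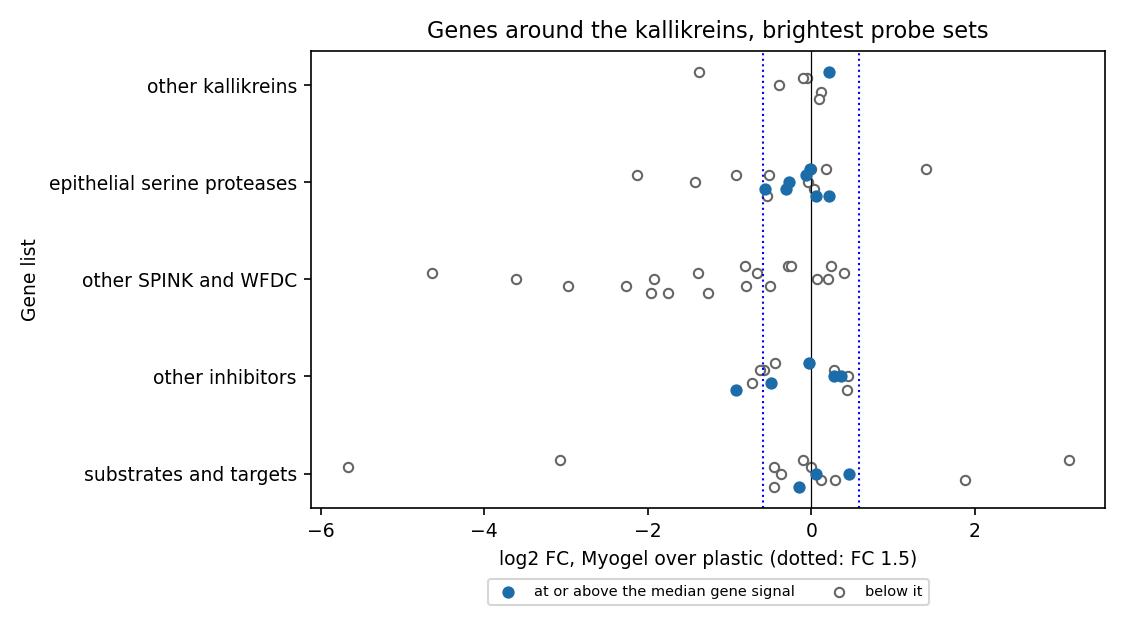
The log2 FC of the brightest probe set (x axis) for the genes of 5 lists around the kallikreins (y axis), filled at or above the median gene signal of 142 and open below it, with dotted lines at FC 1.5. Only 1 filled point lies beyond the dotted lines, SERPINA3 at -0.92, while the open points spread widely.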

How the data were processed

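The authors hybridised 2 Affymetrix arrays (HG-U133 Plus 2.0), and dChip gave the deposited intensity of each probe set. Its version, its model and any normalization of the arrays to each other are not stated in the sources used here. Intensities are linear, with a floor of 1 that held 4.42% of probe sets on plastic and 4.73% on Myogel. They were used as deposited, and 62 control probe sets were left out of all counts. The number of arrays limits the precision.

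Symbols came from the annotation of the platform and were updated by Entrez identifier through a RefSeq table of GRCh38.p14. A single symbol was held by 41091 probe sets, 1801 had several, and the rest were unnamed here. The brightest probe set, that with the highest mean log2 value, represented a gene. For each probe set the range of the middle 95% of log2 FC over the 1000 probe sets nearest in signal was taken.

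The members and lists were chosen with earlier results of these data known. All members were named with every probe set, and in each of 5 lists the genes past FC 1.5 that reached the median gene signal, or otherwise the 2 brightest. Each surface was 1 array, so no test was run. The alternatives were quantile normalization, loess centring (span 0.3), the median set to 0, offsets of 16 and 50, a filter on low signal, leaving out _x_at, _s_at and _a_at probe sets (whose probes may match more than 1 transcript), means or any probe set of a gene, FC 1.2 and 2, and a difference of 100 linear units. Calculations were done in Python 3.11.15 (pandas 2.3.3, numpy 2.4.6, loess from statsmodels 0.14.6) and plots with matplotlib 3.10.9, and the scripts were tested on simulated data.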

Additional observations from a re-analysis of the deposited data

How the results depend on the processing

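The sign of the log2 FC of each of the 9 genes stayed the same under each of 8 alternatives that gave a value. The size moved by more than the standard deviation of log2 FC over the 1000 probe sets nearest in signal in 1 setting only. That was the averaging of all probe sets of a gene, which gave -0.50 for KLK8 and -0.87 for KLK13. The count of genes lower with FC 1.5 or more was 2 and became 1 after quantile normalization, loess centring, setting the median log2 ratio to 0, an offset of 16 or 50 linear units, leaving out probe sets of the _x_at, _s_at and _a_at kinds, or requiring a difference of 100 linear units. It was 6 with FC 1.2, which 30.8% of all genes passed in this direction, 0 with FC 2, 3 when probe sets were averaged and 5 with any probe set of the gene. The share of all genes lower with FC 1.5 or more was 13% after quantile normalization, 12.9% after loess centring and 15.2% with the median set to 0. It was 10.2% with an offset of 16, 2.89% with an offset of 50 and 7.36% with the filter on low signal. Without these kinds of probe sets it was 20.7%, when probe sets were averaged 21.4% and with a difference of 100 linear units 0.627%. For FC 2 and for any probe set of the gene no share was taken, so these 2 counts have no background. A gene with several probe sets has more ways to pass by any of them. KLK5, KLK8 and KLK11 have only probe sets of these kinds and gave no value without them, and the 1 gene then lower was KLK10 through its dim probe set. The count of probe sets lower was 6 and became 4 after the 3 scalings, with an offset of 16 or with the filter on low signal, 2 with an offset of 50 or without these kinds of probe sets, 10 with FC 1.2, 1 with FC 2 and 1 with a difference of 100 linear units. With that difference 0.916% of all probe sets were lower. No share of all probe sets was taken for the other alternatives, so their counts are not set against a background. The causes of these shifts in the counts were not tested. The counts of genes and probe sets higher with FC 1.5 or more stayed at 0 under each alternative run. No replicate could be left out and no paired analysis was possible because each surface is 1 array. Dim probe sets, such as those of PI3 and the second ones of KLK10 and KLK13, limit what can be read from their fold changes.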
